A study of Homo sapiens with 28 samples.

Results

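Lipoxygenases and the other enzymes that turn arachidonic acid into eicosanoids were followed in 7 human acute myeloid leukemia (AML) cell lines. They are 10 of the 17687 genes with a named probe set: ALOX5, ALOX5AP, LTA4H, LTC4S, ALOX12, ALOX15, PTGS1, PTGS2, TBXAS1 and PTGES, each with 1 probe set. These 10 genes were chosen by name with their control levels and their treated minus control changes in these same arrays already known, so both are described below without a test. Of the 7 lines, 4 carry a rearrangement of the MLL gene (MLL-r: NOMO-1, THP-1, MV4-11 and MOLM-13) and 3 do not (non-MLL-r: OCI-AML3, U-937 and HL-60). Cells of every line were kept for 8 days in 1 µM Pinometostat (treated), an inhibitor of the H3K79 methyltransferase DOT1L, or in 0.01% DMSO alone (control), and their total RNA was hybridized to Clariom S arrays. Each line and condition had 2 arrays, 28 in all, so that every line gives n = 2 control against n = 2 treated arrays of 1 established line. Whether replicates 1 and 2 were separate cultures is not given in the sources used here, and the spread between them may be technical.

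Eicosanoids are short-lived lipid signals made from arachidonic acid that phospholipases A2 release from membranes. In the leukotriene branch, 5-lipoxygenase (ALOX5), helped by its membrane partner FLAP (ALOX5AP), forms leukotriene A4, which LTA4H turns into the neutrophil attractant leukotriene B4 and LTC4S joins to glutathione. ALOX12, the platelet-type 12-lipoxygenase, and ALOX15 oxidize other carbons of the same fatty acid. In the prostanoid branch, the cyclooxygenases PTGS1 and PTGS2 make prostaglandin H2, from which TBXAS1 makes thromboxane A2 and PTGES makes prostaglandin E2. Monocytes and granulocytes are major sources of leukotrienes, and platelets of thromboxane and of the 12-lipoxygenase product.

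Promoter sequence is shown for the 4 enzymes with a change of at least 1 log2 unit in some line that had an entry in the RefSeq table (GRCh38.p14), as the 250 bases before the annotated start, read 5′ to 3′ on the gene's strand. ALOX12 lies at chr17:6995799-6996048 on the plus strand, ALOX5AP at chr13:30713235-30713484 on the plus strand, LTA4H at chr12:96035588-96035837 on the minus strand and TBXAS1 at chr7:139829014-139829263 on the plus strand. The starts of LTA4H and TBXAS1 used in the table lie inside the annotated span of each gene, so these windows are not at its outer 5′ end. Capitals mark 2 motifs searched on both strands, GAGGAA (or its reverse complement TTCCTC), the core bound by myeloid ETS factors such as PU.1, and GGGCGG (or CCGCCC), the GC box. No 2 matches in these windows shared a base.
ALOX12: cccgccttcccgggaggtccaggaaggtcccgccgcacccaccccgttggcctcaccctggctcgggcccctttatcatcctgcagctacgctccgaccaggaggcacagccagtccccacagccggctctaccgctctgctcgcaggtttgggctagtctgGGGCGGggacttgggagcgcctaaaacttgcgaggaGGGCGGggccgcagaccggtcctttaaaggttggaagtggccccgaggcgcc
ALOX5AP: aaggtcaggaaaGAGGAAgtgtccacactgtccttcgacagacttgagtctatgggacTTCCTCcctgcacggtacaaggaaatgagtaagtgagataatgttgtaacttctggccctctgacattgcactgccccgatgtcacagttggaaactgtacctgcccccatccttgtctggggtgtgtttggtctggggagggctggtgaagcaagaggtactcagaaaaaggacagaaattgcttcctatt
LTA4H: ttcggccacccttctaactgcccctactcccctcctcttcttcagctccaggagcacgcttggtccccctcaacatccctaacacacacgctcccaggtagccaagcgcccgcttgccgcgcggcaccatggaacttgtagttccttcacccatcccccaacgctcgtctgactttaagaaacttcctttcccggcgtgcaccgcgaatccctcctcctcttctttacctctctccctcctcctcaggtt
TBXAS1: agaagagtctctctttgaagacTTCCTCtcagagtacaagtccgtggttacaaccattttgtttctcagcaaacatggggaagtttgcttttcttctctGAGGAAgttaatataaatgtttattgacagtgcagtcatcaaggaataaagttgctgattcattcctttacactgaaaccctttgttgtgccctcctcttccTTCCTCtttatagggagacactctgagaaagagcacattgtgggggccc
The ALOX12 window held 2 GC boxes and no GAGGAA, and 68.4% of its bases were G or C. ALOX5AP held 2 copies of GAGGAA and TBXAS1 held 3, with no GC box in either, and LTA4H held neither motif. Over the 35116 windows of this length in the table, GAGGAA was found in 23.6% and GGGCGG in 42.6%. Windows were at hand for 8 of the 10 genes (9 windows, since PTGS1 has 2 starts), of which 3 held GAGGAA and 5 held GGGCGG. A match of letters is a description only. ALOX5 and ALOX15 are named without a sequence.

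All arrays were normalized together, with medians from 5.61 to 5.76 log2 units, and replicates of a condition correlated at 0.953 to 0.985 over all genes. The 95th percentile of the 612 negative-control probe sets ran from 3.85 to 4.56 among arrays, and a value at or under it is called background below. Monocyte and macrophage markers (9 of 10 listed were measured) had mean levels from 4.89 to 8.76 in control and 5.04 to 10.47 in treated arrays. Their mean change was 0.10 in HL-60, 0.41 in MV4-11, 0.46 in MOLM-13, 0.63 in U-937, 0.68 in OCI-AML3, 0.73 in THP-1 and 1.74 log2 units in NOMO-1. CD14, the monocyte co-receptor for endotoxin, rose in NOMO-1, THP-1 and OCI-AML3 (limma, adjusted p = 0.00412, 0.0136 and 0.0330). Its change in MOLM-13 was 2.74 ± 0.37 (limma, adjusted p = 0.0718). Of the other monocyte markers, CSF1R, CD163, MRC1 and CTSS were called higher in NOMO-1, LYZ in OCI-AML3 and U-937, and CSF1R in MV4-11. None was called lower in any line. The largest negative changes were −0.99 for VCAN in NOMO-1, −0.57 for LYZ in HL-60 and −0.57 for FCGR1A in MV4-11. CSF1R changed by −0.41 in U-937, and CD68 by −0.28 in THP-1 and −0.21 in OCI-AML3. Neutrophil and promyelocyte markers (8 of 9) shifted by −0.41 in HL-60 to 1.52 in NOMO-1, and eosinophil markers (6 of 7) by −0.07 in THP-1 to 1.95 in NOMO-1. Megakaryocyte and platelet markers (11 of 13) had mean levels of 4.14 to 4.81 in control and 4.16 to 5.02 in treated arrays, and shifted by −0.02 in U-937 to 0.49 in NOMO-1, where 1 of them, the platelet chemokine PPBP, rose by 3.82 ± 0.35 (limma, adjusted p = 0.00144). T cell, B cell, erythroid and mast cell lists moved by at most 0.54 log2 units (mast cell list, NOMO-1), with no gene called. In RNA of whole cultures, a change in the share of cells of one kind and a change in RNA per cell cannot be told apart.

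A change was counted as large where it reached 1 log2 unit, a 2-fold difference in signal, and both treated arrays lay beyond both control arrays. Of the 70 combinations of gene and line, 10 were higher and 1 was lower after Pinometostat by this rule. MV4-11 had 2 higher (ALOX5 and ALOX5AP) and 1 lower (ALOX12), NOMO-1 had 4 higher (ALOX5, ALOX5AP, LTA4H and TBXAS1), THP-1 had 3 higher (ALOX5, LTA4H and TBXAS1), and OCI-AML3 had 1 higher (TBXAS1). MOLM-13, U-937 and HL-60 had none. Without NOMO-1, 6 higher and 1 lower were left. Of all genes, NOMO-1 also had the largest shares past the rule (4.77% higher and 3.18% lower).

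The same rule over all 17687 genes gives the background of each line. The share of genes higher was 4.77% in NOMO-1, 1.7% in THP-1, 2.39% in MV4-11, 0.859% in MOLM-13, 1.89% in OCI-AML3, 0.3% in U-937 and 0.277% in HL-60. The share lower was 3.18% in NOMO-1, 0.712% in THP-1, 1.52% in MV4-11, 0.0905% in MOLM-13, 0.52% in OCI-AML3, 0.113% in U-937 and 0.198% in HL-60. Because the enzymes were chosen from these changes, nothing is read from the distance between their counts and these shares. The median change over the 10 genes was 0.49 in NOMO-1, 0.28 in THP-1, 0.25 in MV4-11, 0.33 in MOLM-13, −0.08 in OCI-AML3, 0.00 in U-937 and 0.14 in HL-60, beside medians over all genes between −0.03 and 0.00. The smallest change that met the rule was that of ALOX5AP in NOMO-1 (1.16). Just outside it lay TBXAS1 in MOLM-13, whose change was 1.06 but whose arrays overlapped, and LTC4S in OCI-AML3 at −0.88.

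**Figure D1:**
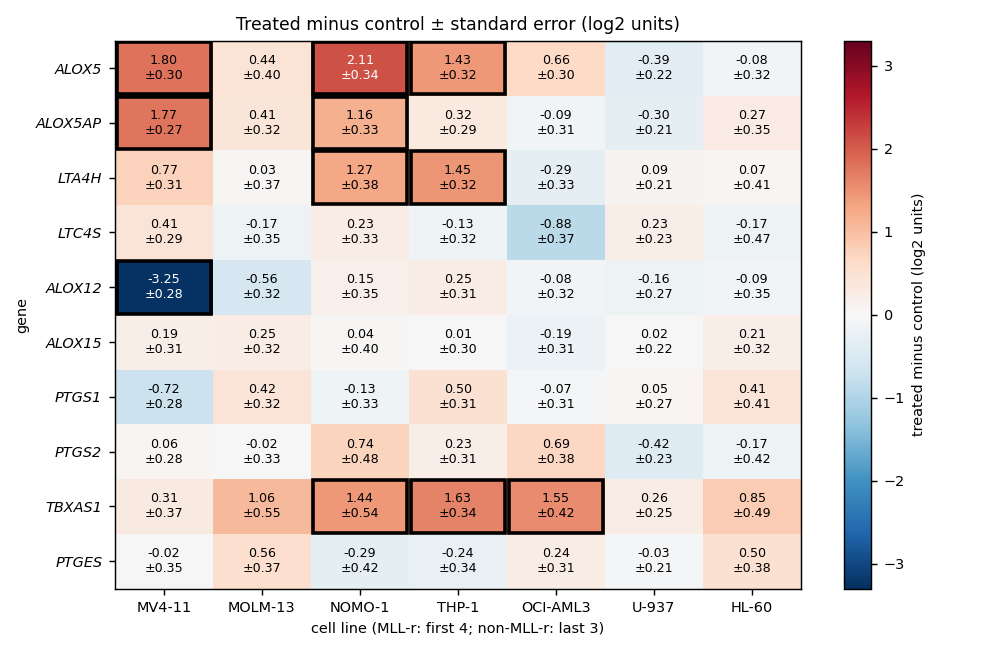
Treated minus control change ± standard error in log2 units for the 10 genes (rows) in the 7 lines (columns), each from 2 against 2 arrays, with black frames around changes of at least 1 log2 unit without overlap of arrays. The frames hold 10 higher values, in ALOX5, ALOX5AP, LTA4H and TBXAS1, and 1 lower value, ALOX12 in MV4-11 at −3.25.

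ALOX5, the enzyme that opens leukotriene synthesis, had low control signals in every line and was higher after treatment in 3 of the 4 MLL-r lines. In NOMO-1 its control arrays read 5.14 and 4.79 and its treated arrays 6.90 and 7.25, a change of 2.11 ± 0.34 log2 units (SE of the limma fit), or 4.31-fold. In MV4-11 the control arrays read 3.70, at background, and 4.17 and the treated arrays 5.59 and 5.88, a change of 1.80 ± 0.30. In THP-1 both control arrays, 3.96 and 3.43, were background and the treated arrays read 4.92 and 5.32, a measured change of 1.43 ± 0.32, which makes the signal at least 2.02-fold higher than the background level. Control and treated arrays stood apart in all 3 of these lines. In OCI-AML3 ALOX5 went from 3.92 and 3.93, with 1 control array at background, to 4.63 and 4.55, which is 0.66 ± 0.30 with no overlap of arrays. MOLM-13, the other MLL-r line, had overlapping arrays and a change of 0.44 ± 0.40, with unlike controls (3.53, at background, and 4.53). U-937 was lower by 0.39 ± 0.22, with both treated arrays at background, and in HL-60 all 4 arrays were background. Among controls, NOMO-1 had the highest ALOX5 level, 4.96 ± 0.25 (SD, n = 2), above U-937 without overlap, while all lower neighbours in the order overlapped. Over the 28 arrays, 11 ALOX5 values were background.

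ALOX5AP, whose product FLAP hands arachidonic acid to 5-lipoxygenase, was bright in every line. The MV4-11 controls read 9.95 and 9.97 and the treated arrays 11.76 and 11.71, a change of 1.77 ± 0.27, or 3.42-fold, which brought this line from the low end of the control order to just under treated MOLM-13 (12.03 and 11.79). NOMO-1 started highest, at 12.08 and 11.73, and reached 13.09 and 13.05, a change of 1.16 ± 0.33. Replicates of treated cells differed by less than 0.1 log2 units in both lines. MOLM-13 (0.41 ± 0.32) and THP-1 (0.32 ± 0.29) also had treated arrays above control arrays without overlap. The non-MLL-r lines had changes of −0.09 ± 0.31 in OCI-AML3, −0.30 ± 0.21 in U-937 and 0.27 ± 0.35 in HL-60, and only U-937 had no overlap. Control levels ran in the order NOMO-1, MOLM-13, THP-1, U-937, OCI-AML3, MV4-11 and HL-60, from 11.91 to 9.96, and the last 3 overlapped.

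LTA4H, which makes leukotriene B4, was higher in THP-1 and NOMO-1. In THP-1 the control arrays read 8.36 and 7.99 and the treated arrays 9.90 and 9.34, a change of 1.45 ± 0.32, or 2.73-fold. In NOMO-1 the values went from 9.82 and 9.15 to 11.00 and 10.51, a change of 1.27 ± 0.38. Replicate 1 lay above replicate 2 in all 4 of these pairs, and the change within a replicate number was 1.54 and 1.35 in THP-1 and 1.18 and 1.36 in NOMO-1. MV4-11, with the lowest control level (7.61 ± 0.41), went from 7.90 and 7.32 to 8.53 and 8.24, by 0.77 ± 0.31 and without overlap. The other 4 lines ranged from −0.29 (OCI-AML3) to 0.09 (U-937), all with overlapping arrays. OCI-AML3, a non-MLL-r line, had the highest control level at 9.83 ± 0.10, which overlapped NOMO-1.

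LTC4S, the glutathione-joining enzyme of the cysteinyl leukotrienes, had no change of 1 log2 unit. Its changes ran from −0.88 ± 0.37 in OCI-AML3 to 0.41 ± 0.29 in MV4-11. OCI-AML3 controls read 7.57 and 6.55 and treated arrays 6.38 and 5.99, which do not overlap, but the controls differed from each other by more than the mean change. The highest control levels were those of OCI-AML3 (7.06 ± 0.72) and MV4-11 (7.00 ± 0.05), and the lowest that of NOMO-1 (5.64 ± 0.24). Leaving out control replicate 2 or treated replicate 1 took OCI-AML3 past the rule, to −1.39 and −1.08.

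**Figure D2:**
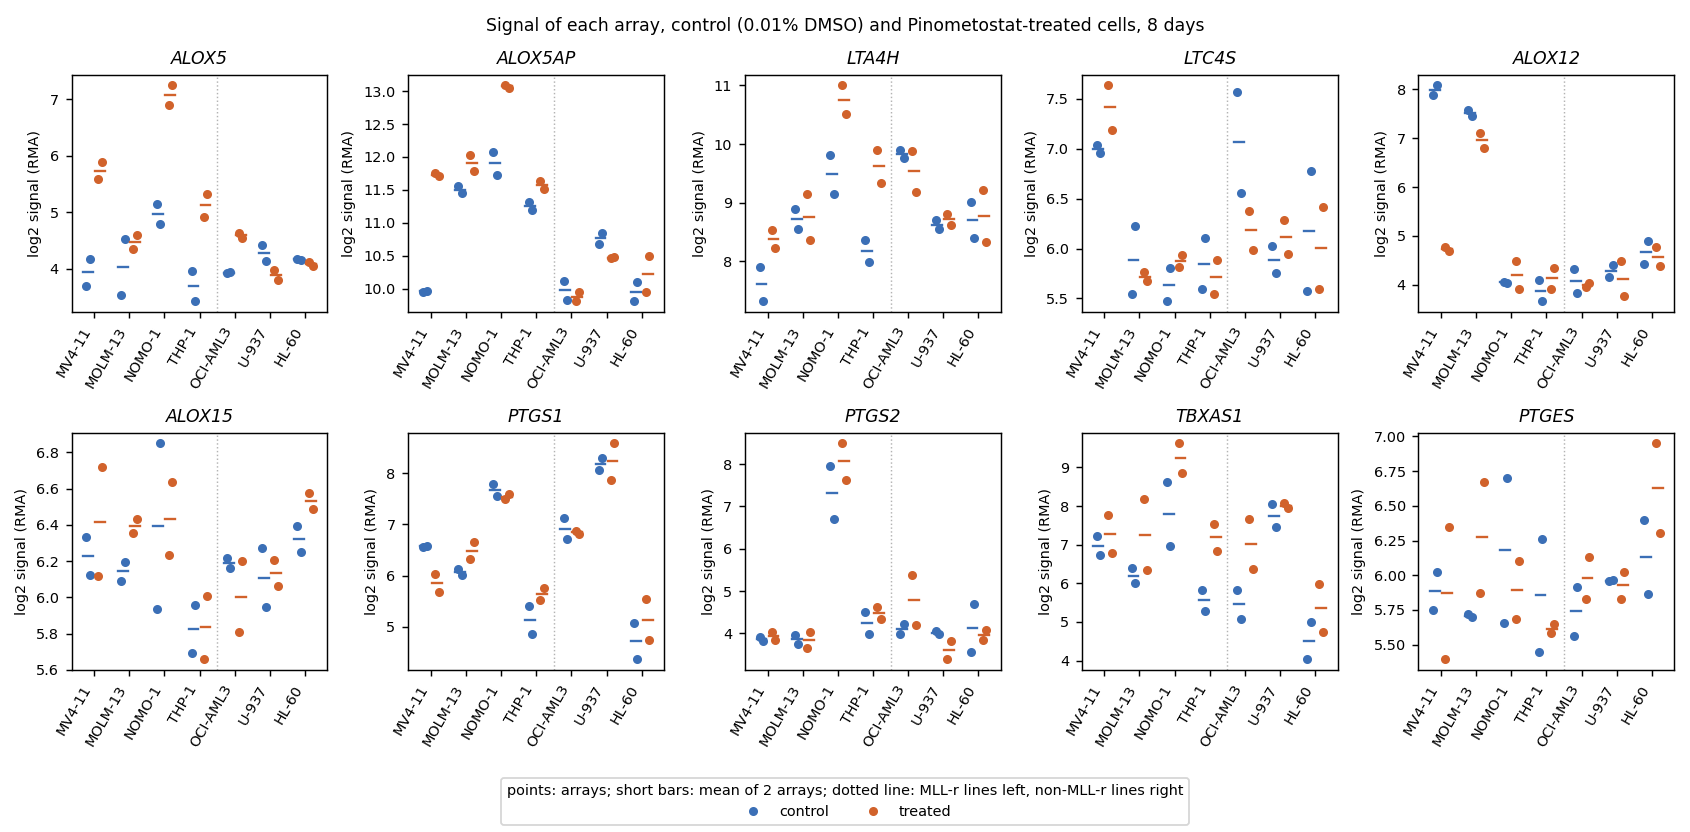
Log2 signal of every array (points) and the mean of 2 arrays (short bars) for the 10 genes, one panel each with its own axis, in control (blue) and treated (orange) cells of the 7 lines, MLL-r lines left of the dotted line. Among controls ALOX12 is high in MV4-11 and MOLM-13 only (7.46 to 8.08), and treated MOLM-13 reads 6.79 and 7.11 while treated MV4-11 reads 4.68 and 4.77, and PTGS2 stands out in NOMO-1.

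ALOX12 had the largest difference of all 70. In MV4-11 the control arrays read 7.88 and 8.08 and the treated arrays 4.77 and 4.68, a change of −3.25 ± 0.28, or 9.54-fold lower, with −3.11 and −3.40 in replicates 1 and 2. The treated level was inside the range of 3.67 to 4.91 covered by the 20 arrays of NOMO-1, THP-1, OCI-AML3, U-937 and HL-60. MOLM-13 was the only other line with a high ALOX12 signal, and its signal stayed high. Its control arrays read 7.57 and 7.46 and its treated arrays 7.11 and 6.79, a change of −0.56 ± 0.32 without overlap. The control level of MV4-11, 7.98 ± 0.14, was above that of MOLM-13, 7.51 ± 0.08, and the next line, HL-60, was 2.85 log2 units below MOLM-13. In the 5 lines with low signal the changes were −0.16 to 0.25 with overlapping arrays, and 7 of the 20 arrays were background. Markers of megakaryocytes and platelets, the cells best known for this enzyme, had in MV4-11 a mean of 4.34 to 4.44 in control and 4.25 to 4.69 in treated arrays, none of the 11 was called and 5 were background on all 4 arrays. The gene lies at chr17:6996049-7010754 (GRCh38.p14), within the span of the long noncoding RNA ALOX12-AS1 (chr17:6985123-7012334), and whether the probe set separates the strands is not given in the sources used here.

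ALOX15, the 15-lipoxygenase of eosinophils and alternatively activated macrophages, was level throughout. Control means ran from 5.83 in THP-1 to 6.39 in NOMO-1, and every pair of neighbours overlapped. Changes ran from −0.19 (OCI-AML3) to 0.25 (MOLM-13), with SEs of 0.22 to 0.40. In NOMO-1, 3 of the 6 eosinophil markers measured rose: CLC, EPX and PRG2, by 5.13 ± 0.48, 3.34 ± 0.39 and 3.03 ± 0.34 (limma, adjusted p = 0.00155, 0.00351 and 0.00310). The others, SIGLEC8, IL5RA and RNASE2, had changes of −0.35 ± 0.36, 0.26 ± 0.36 and 0.26 ± 0.33 and were not called. ALOX15 read 5.94 and 6.85 in control and 6.23 and 6.63 in treated cells of this line.

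TBXAS1, thromboxane synthase, was the only one of the 10 genes whose mean was higher after treatment in all 7 lines, by 0.26 to 1.63 log2 units. In THP-1 it went from 5.82 and 5.29 to 7.54 and 6.84, a change of 1.63 ± 0.34, or 3.09-fold. In OCI-AML3, a non-MLL-r line, it went from 5.83 and 5.09 to 7.66 and 6.37, a change of 1.55 ± 0.42. In NOMO-1 the controls were far apart, at 8.63 and 6.96, and the treated arrays, the lower one just above the higher control, read 9.62 and 8.85, a change of 1.44 ± 0.54. The part of the PPBP rise in that line was not tested. Replicates of TBXAS1 spread widely, and replicate 1 was the brighter in 13 of the 14 pairs of arrays. MOLM-13 controls read 6.39 and 6.01 and treated arrays 8.18 and 6.33, so that the change was 1.80 in replicate 1 and 0.32 in replicate 2. HL-60 controls read 4.04, at background, and 5.00, and treated arrays 5.99 and 4.74, with changes of 1.95 and −0.26. These 2 lines, as well as MV4-11 (0.31 ± 0.37) and U-937 (0.26 ± 0.25), had overlapping arrays. Without control replicate 2 the NOMO-1 change was 0.61, and without treated replicate 1 the OCI-AML3 change was 0.91, both under the rule. Control levels were highest in NOMO-1 (7.80 ± 1.18) and U-937 (7.75 ± 0.41), which overlapped, and lowest in HL-60 (4.52 ± 0.68).

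**Figure D3:**
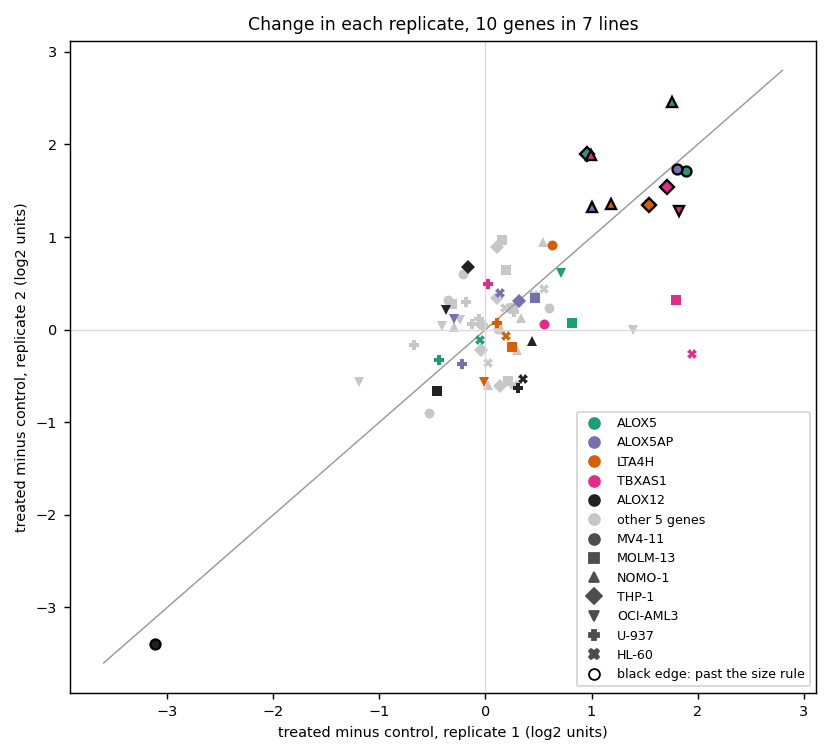
Treated minus control change in replicate 1 (horizontal) against replicate 2 (vertical), in log2 units, for each of the 10 genes in the 7 lines, with the gene in color, the line as marker shape, a black edge for changes past the size rule and a diagonal of equal change. ALOX12 in MV4-11 lies at −3.11 and −3.40, while TBXAS1 in MOLM-13 (1.80 and 0.32) and HL-60 (1.95 and −0.26) sits far off the diagonal.

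PTGS1, the constitutive cyclooxygenase, differed between lines more than between conditions. Control levels ran from 8.17 ± 0.16 in U-937 through NOMO-1 (7.67), OCI-AML3 (6.92), MV4-11 (6.57), MOLM-13 (6.07) and THP-1 (5.14) to 4.73 ± 0.50 in HL-60, and only the last pair overlapped. The MV4-11 values went from 6.56 and 6.58 to 6.03 and 5.68, a change of −0.72 ± 0.28 without overlap. THP-1 (0.50 ± 0.31) and MOLM-13 (0.42 ± 0.32) were higher without overlap, and the other 4 lines overlapped with changes of −0.13 to 0.41.

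PTGS2, the inducible cyclooxygenase, was bright in NOMO-1 only. The NOMO-1 controls read 7.95 and 6.69, the controls of the other lines averaged 3.86 to 4.25, and no array of another line reached the lowest one of NOMO-1. Treated NOMO-1 cells read 8.49 and 7.63, a change of 0.74 ± 0.48 with overlapping arrays, although each replicate was higher (0.54 and 0.94). In OCI-AML3 1 treated array stood at 5.38 and the other at 4.21, beside controls of 3.99 and 4.21. MV4-11 and MOLM-13 had background values on all arrays, and 14 of the 28 values of the gene were background.

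PTGES, the inducible prostaglandin E synthase, had control means within 5.71 (MOLM-13) to 6.18 (NOMO-1), all neighbours overlapping. Its changes ran from −0.29 ± 0.42 in NOMO-1 to 0.56 ± 0.37 in MOLM-13. MOLM-13 was the only line without overlap, from 5.72 and 5.70 to 5.87 and 6.67, most of it in 1 treated array.

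By kind of line, the mean change of ALOX5 was 1.44 over the 4 MLL-r and 0.06 over the 3 non-MLL-r lines, and the ranges, 0.44 to 2.11 and −0.39 to 0.66, overlapped. For ALOX5AP the means were 0.91 and −0.04, and every MLL-r line (0.32 to 1.77) was above every non-MLL-r line (−0.30 to 0.27). The nearest of these, THP-1 (0.32 ± 0.29) and HL-60 (0.27 ± 0.35), were closer to each other than either SE. LTA4H had means of 0.88 and −0.04 with overlapping ranges, since MOLM-13 changed by 0.03. TBXAS1 had means of 1.11 and 0.89, the nearest to each other of these 4 genes. These differences were among what chose the genes and were not tested.

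Likeness was measured for the 5 genes with a large change as Pearson's r over the 14 means of line and condition, and it describes patterns among means that share arrays and cell lines. ALOX12 was followed most closely by PRSS57 (0.94), CSPG4 (0.91) and LY9 (0.91). For ALOX5 these were OTUD1 (0.94), TLR1 (0.91) and NFAT5 (0.91), and for ALOX5AP FILIP1L (0.94), P2RX4 (0.93) and SAT1 (0.91). LTA4H was most like NCOA4 (0.94), CASP8 (0.88) and DCPH1 (0.88), and TBXAS1 most like EEPD1 (0.93), MARCHF8 (0.92) and ABHD2 (0.92).

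Around the 10 enzymes, 48 of 54 listed pathway genes had a named probe set and were tested, which the 10 were not. In the 336 combinations of gene and line, 3 rose and 1 fell at a limma adjusted p under 0.05 without pairing, which is 0.893% and 0.298% of them beside 0.543% and 0.148% over all genes and lines. The share of all genes called was 2.12% in NOMO-1, 0.628% in THP-1, 1.1% in MV4-11, 0.0396% in MOLM-13, 0.905% in OCI-AML3, 0.0396% in U-937 and 0% in HL-60. Blocking on the replicate number gave counts of 12 and 6, which is 3.57% and 1.79% beside 2.41% and 1.79% over all genes and lines. By line, the block called 15.5% of all genes in NOMO-1, 4.39% in THP-1, 6% in MV4-11, 0.599% in MOLM-13, 2.94% in OCI-AML3, 0.0339% in U-937 and 0% in HL-60. The study's thresholds of p and fold change, read here as an unadjusted p under 0.05 and 1 log2 unit, gave 11 higher and 4 lower in the fit without pairing. Of all genes, they called 7.88% in NOMO-1, 3.91% in MV4-11, 2.44% in THP-1 and in OCI-AML3, 0.944% in MOLM-13, 0.435% in HL-60 and 0.413% in U-937. The median change over the 336 values was 0.05, beside −0.01 over all genes.

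Of the 10 genes of leukotriene metabolism, 2 rose. CYP4F3, the cytochrome that inactivates leukotriene B4 in neutrophils, went in NOMO-1 from 4.41 and 4.58 to 6.98 and 6.38, a rise of 2.18 ± 0.36 (limma, adjusted p = 0.0159, and 0.0581 without treated replicate 1). The other 6 lines had CYP4F3 changes of −0.14 to 0.50. Of the 8 neutrophil and promyelocyte markers measured, 3 rose and 1 fell in NOMO-1: LTF, CEACAM8 and MMP8 rose by 5.42 ± 0.49, 4.79 ± 0.34 and 3.83 ± 0.42 (limma, adjusted p = 0.00140, 0.000490 and 0.00296), while CTSG had a change of −1.73 ± 0.33 (limma, adjusted p = 0.0319). The other 4 ranged from −0.92 (AZU1) to 1.02 (CAMP), and the part of these markers in the CYP4F3 result was not tested. MGST1, a microsomal glutathione transferase of the same protein family as FLAP and LTC4S, went in MV4-11 from 8.64 and 8.52 to 10.30 and 10.20, a rise of 1.67 ± 0.27 (limma, adjusted p = 0.0185). MV4-11 had the lowest MGST1 control level, and the other lines had changes of −0.51 in NOMO-1 to 0.79 in MOLM-13. CYP4F2 (1.35 ± 0.36) and PTGR1 (0.90 ± 0.42) in NOMO-1 were called only with the block (limma, adjusted p = 0.000536 and 0.0139, against 0.114 and 0.477).

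Of the 10 genes of prostanoid synthesis and breakdown, 1 fell. PTGIS, prostacyclin synthase, went in OCI-AML3 from 6.25 and 6.43 to 4.55 and 4.71, a change of −1.71 ± 0.30 (limma, adjusted p = 0.0163, and 0.0824 without control replicate 2). OCI-AML3 was the line with the highest control level, the controls of the others averaging 3.85 to 4.56, so treated OCI-AML3 came close to them. The same line had the opposite sign in TBXAS1, another synthase that uses prostaglandin H2. In NOMO-1, CBR1 (−1.55 ± 0.35) and HPGD (−1.23 ± 0.44), a carbonyl reductase and the dehydrogenase that inactivates prostaglandin E2, were called only with the block (limma, adjusted p = 7.22e-05 and 0.00179, against 0.0651 and 0.279). In the same way AKR1C3 (1.27 ± 0.36) and the prostaglandin carrier SLCO2A1 (1.13 ± 0.35) in OCI-AML3 and the exporter ABCC4 (0.92 ± 0.32) in MV4-11 were called with the block alone (limma, adjusted p = 0.0108, 0.0262 and 0.0306).

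Of the 13 receptors, 1 rose. CYSLTR2, a receptor for cysteinyl leukotrienes, went in OCI-AML3 from 4.27 and 4.26 to 6.41 and 6.02, a rise of 1.95 ± 0.31 (limma, adjusted p = 0.00810). This was the line in which LTC4S had its lowest change. CYSLTR2 changes elsewhere were −0.15 to 0.51. Every one of those lines had at least 1 array at background, and HL-60 had all of them there, which limits what these changes can show. The prostaglandin E2 receptor PTGER2 had changes of 1.22 ± 0.33 in OCI-AML3 and 1.19 ± 0.29 in THP-1, called only with the block (limma, adjusted p = 0.0160 and 0.00486), as were PTGER3 in OCI-AML3 (0.98 ± 0.34, adjusted p = 0.0399) and CYSLTR1 in NOMO-1 (−0.90 ± 0.45, adjusted p = 0.0131). In U-937 CYSLTR1 had a change of 1.06 ± 0.23 (limma, adjusted p = 0.438, and 0.242 with the block). Its changes in the remaining lines ran from −0.69 (OCI-AML3) to 0.51 (THP-1).

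None of the 7 phospholipases A2, 3 other lipoxygenases and 5 epoxide and peroxide enzymes was called without the block. PLA2G4A, the cytosolic phospholipase that supplies arachidonic acid, had changes of −1.04 ± 0.45 in NOMO-1 and −0.996 ± 0.40 in MV4-11. It was called in both with the block (limma, adjusted p = 0.00470 and 0.0421). The OCI-AML3 change had the opposite sign, 0.91 ± 0.35, and was not called with the block (limma, adjusted p = 0.0569). The remaining lines ranged from −0.46 (THP-1) to −0.17 (MOLM-13). EPHX1, an epoxide hydrolase, had a change of 1.10 ± 0.28 in MV4-11 and was likewise called with the block alone (limma, adjusted p = 0.0180). In NOMO-1 the supplier PLA2G4A had a negative value beside positive values for ALOX5, ALOX5AP and LTA4H.

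With the 7 line differences as the samples, the average change was called in 0 pathway genes and 0% of all 17687 genes at a limma adjusted p under 0.05, where the lowest was 0.134. This count over all genes was not stable, since leaving out 1 replicate number of a condition gave 28 to 1270 genes. At an unadjusted p under 0.05, 2301 of the 17687 genes passed. Among the 48 pathway genes 3 passed, a smaller share than over all genes: MGST1 (0.52 ± 0.20), PTGR1 (0.27 ± 0.11) and CBR1 (−0.41 ± 0.18). MGST1 was higher in 6 of 7 lines, PTGR1 in 7 of 7 and CBR1 in 2 of 7. As these genes were picked by their average change, the line counts partly follow from that choice and add no support. The MLL-r minus non-MLL-r difference was called in 0 pathway genes and 0% of all genes, with a lowest adjusted p of 0.0731. Unadjusted, 1093 of the 17687 genes passed, and 4 of the 48 pathway genes, which is close to the share over all genes. PLA2G4A (−0.76 ± 0.33), MGST2 (−0.46 ± 0.18) and GGT1 (−0.59 ± 0.26) were lower and OXER1, a receptor for oxidized eicosanoids, was higher in the MLL-r lines (0.48 ± 0.18).

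**Figure D4:**
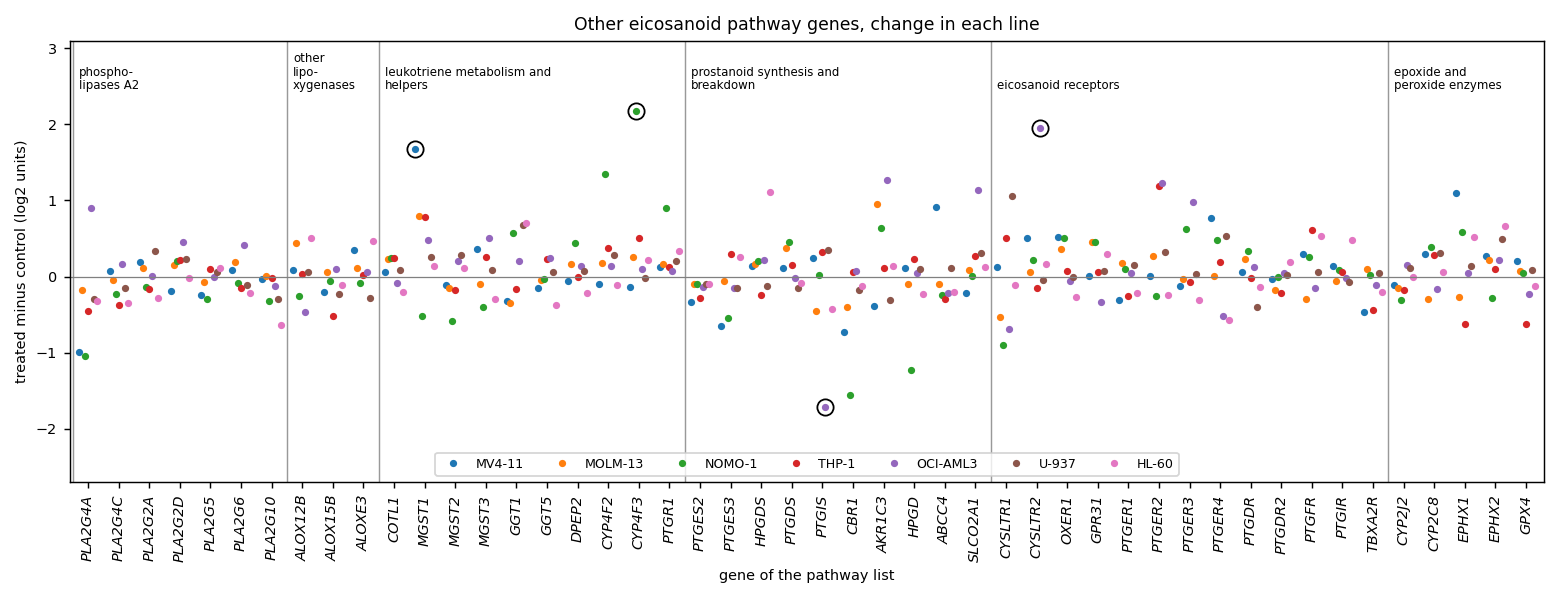
Treated minus control change in log2 units (vertical) of the 48 other eicosanoid pathway genes (horizontal, by function), with 1 point a line colored by line and open black circles around changes at a limma adjusted p under 0.05. The circles mark MGST1 in MV4-11 (1.67), CYP4F3 in NOMO-1 (2.18), CYSLTR2 in OCI-AML3 (1.95) and PTGIS in OCI-AML3 (−1.71).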

How the data were processed

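The values were the authors' deposited log2 signals of Clariom S arrays, background corrected, quantile normalized and summarized per probe set by RMA over all arrays together (R 3.6.1 and RMA in the submitters' processing notes). No source used here names a filter applied before that. Of 27189 entries, 5741 array controls were left out, 17709 of 21448 transcript probe sets carried 1 gene symbol, and averaging the several probe sets of 20 genes left 17687 genes, none filtered on signal.

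Treated and control arrays were compared within each line (2 against 2) with limma 3.58.1 (lmFit, eBayes, R 4.3.3), Benjamini-Hochberg adjusted over all genes of a line. The 7 line differences were fitted in the same way. For the 10 enzymes the fit gave the SE only. The study names a paired sample analysis; the fits here left the pairing out, and counts with the replicate number as a block are given beside them. Its text does not say whether its p was adjusted or its fold change was on the log2 scale. These genes, the pathway and marker lists and the tests were chosen with earlier results of these data known. Pathway genes called in at least 1 line were named, as were genes behind counts of 5 or fewer and the 3 genes most like each enzyme with a large change. Others that only the replicate block or an unadjusted p called were named after their values were seen. Replicate numbers pair the arrays: deviations of same-numbered control and treated arrays correlated at 0.42 to 0.64 in all 7 lines. The fits were first tested on simulated data, and the number of arrays limits the precision. Alternatives were leaving out each replicate, median centring, the block, 1 fit over 28 arrays, a filter on dim genes and all probe sets. Sequences were read with Python 3.11.15.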

Additional observations from a re-analysis of the deposited data

Results flagged for a closer look

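Over the 7 lines, 2 values stood farther from the rest than Dixon's 95% critical value, among 20 sets of line values (control level and change of each of the 10 genes). Among 20 sets, some are expected to pass a 95% critical value by chance. These are also values from which the genes were chosen, so the gap is a description, supports nothing and is no test. The ALOX12 change in MV4-11 was −3.25 log2 units, against −0.56 to 0.25 in the other 6 lines, with a gap of 0.768 of the whole range. The PTGS2 control level in NOMO-1 was 7.32, against 3.86 to 4.25 elsewhere, with a gap of 0.887 of the range.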

How the results depend on the processing

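The block, 1 fit over 28 arrays and the choice of probe set cannot alter the 70 changes of the 10 genes, only their errors. Centring each array on its median moved ALOX5AP in MV4-11 (1.74 against 1.77) by more than the spread between its replicates, and the other 69 by less. The 10 higher calls became 8 to 14 when 1 replicate was left out (over all genes and lines the share went from 1.74% to between 1.88% and 3.19%). They became 6 without NOMO-1, a line in which 4.77% of all genes were higher. That alternative was added after seeing the data. The 1 lower call, ALOX12 in MV4-11, became 1 to 2 with 1 replicate left out. Over all genes and lines the share lower went from 0.904% to between 1.04% and 2.84%. Of the 11 calls, 7 kept the rule in all 4 such settings. ALOX5AP (0.99), LTA4H (0.94) and TBXAS1 (0.61) in NOMO-1 lost it without control replicate 2, and TBXAS1 in OCI-AML3 (0.91) without treated replicate 1. It was gained without control replicate 1 by LTA4H in MV4-11 (1.06), TBXAS1 in MOLM-13 (1.24) and PTGS2 in NOMO-1 (1.37), without control replicate 2 by TBXAS1 in HL-60 (1.33) and LTC4S in OCI-AML3 (−1.39), without treated replicate 1 by LTC4S in OCI-AML3 (−1.08), and without treated replicate 2 by TBXAS1 in MOLM-13 (1.98) and HL-60 (1.47) and PTGS2 in NOMO-1 (1.17) and OCI-AML3 (1.28).

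The 3 pathway genes called higher were 2 to 10 with 1 replicate left out, 12 with the replicate block and 7 in 1 fit over 28 arrays. Over all genes and lines, the share called higher was 0.543% in the comparison as reported, 0.618% to 1.13% with 1 replicate left out, 2.41% with the block and 1.07% in the 28-array fit. The 1 called lower became 1 to 4, 6 and 3, and 2 with median centring, beside shares of 0.148%, then 0.234% to 0.741%, 1.79%, 0.595% and 0.184%. The average over lines gave 0 to 1 pathway genes with 1 replicate left out (PLA2G2D without treated replicate 1, ALOX15B without treated replicate 2), where all genes gave 28, 1270, 930 and 427 calls against 0, without control replicate 1, control replicate 2, treated replicate 1 and treated replicate 2 in turn, and the MLL-r difference gave 0 under every alternative. The cause of these shifts was not tested. The block kept the 4 pathway calls made without it, and beyond the calls it added it changed no other call. A lone array left in a condition is assumed to vary like the other condition. Values at background, as in ALOX5 and PTGS2, limit what a change there can show.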
